A study of Ictidomys tridecemlineatus with 15 samples.

Results

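Nascent transcription of 10 genes of the actin cytoskeleton and of serum response factor (SRF) was followed through the hibernation cycle in the liver of the 13-lined ground squirrel, Ictidomys tridecemlineatus. The genes were Actb, Actg1, Srf, Vcl, Flna, Myh9, Actn1, Actn4, Cfl1 and Pfn1. They were found by matching each symbol to the names of the transcription units that the authors counted, and 10 of 10 had a unit among 6324 in all. Of these 10 units, 8 carried 1 gene. The others were merged units, Actb:Fbxl18 and Slc25a11:Pfn1. In these the authors had joined genes whose gene bodies overlapped once redrawn from the GRO-seq signal. The reads of Actb and Fbxl18, or of Pfn1 and Slc25a11, therefore cannot be divided.

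Reads came from GRO-seq, in which nuclei are isolated from frozen liver and their engaged RNA polymerases extend RNA in a short run-on outside the animal. The newly made RNA is purified and sequenced. The run-on thus reports polymerases that were engaged on a gene in the animal, not how fast they moved at its own body temperature. Levels here are scaled to library size, so they are relative to other units and give no number of polymerases. All animals were laboratory-housed females with implanted temperature loggers, untreated otherwise, and each library came from a different animal. The 5 states were summer active (SA, 3 libraries, homeothermic and before hibernation), interbout aroused (IBA, 3, rewarmed between torpor bouts), entrance into torpor (Ent, 3, cooling), early torpor (ET, 3) and late torpor (LT, 2). SA and IBA are called warm here and ET and LT cold. A further LT library, replicate 2, was removed by the authors and was not used here.

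Actin exists as single subunits and as filaments, and the balance between them is set by proteins that add, cut, cap and bind subunits. SRF is a transcription factor that binds the CArG box in the promoters of many actin and actin-binding genes, its own gene included. One family of SRF cofactors, the MRTF proteins, is held back by free actin subunits, so that assembly of filaments can feed back on transcription of the cytoskeleton. In hepatocytes, actin lies densely under the membrane of the bile canaliculi. Stellate cells, endothelial cells and immune cells of the liver are rich in actin genes as well, and in whole liver a smaller share of such cells and less transcription per cell cannot be told apart.

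Library totals ran from 3713883 to 8884763 reads on units, and the 10 units together took between 0.108 and 0.268% of them. Levels are given as CPM, counts per 1e+06 reads of the library total after TMM scaling. In all tests the counts of all 6324 units in 14 libraries were fitted at once with edgeR's quasi-likelihood test and Benjamini-Hochberg adjustment of the p-values across the whole table, and a unit was called at an adjusted p of 0.001, with 0.05 as a second threshold. The season in which an animal was sampled moved with its state. Season here means the collection year, from July to June, so that summer and winter animals can share 1 season. The 3 ET animals came from a season with no other state, the 2 LT animals from another, the 3 IBA animals from yet another, and only SA and Ent were sampled in more than 1 season. State and season cannot be told apart for ET. Summed hepatocyte markers (7 of 10 had a unit of their own) were at 10245 to 22572 CPM in the warm libraries and 3788 to 7222 CPM in the cold ones. Summed endothelial markers (4 of 10) were at 213 to 266 CPM against 137 to 220 CPM. Of the stellate cell markers 1 of 10, Rgs5, had a unit of its own (42.4 to 73.0 CPM warm, 32.9 to 56.1 CPM cold), as did 2 of 7 cholangiocyte markers (90.8 to 148 CPM warm, 87.9 to 125 CPM cold) and 0 of 10 macrophage and leukocyte markers. The part of cell composition in the results that follow was not tested.

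The merged unit that holds Actb, and the units of Actg1 and cofilin, rose in the cold, and the crosslinker filamin A was lower in each cold library than in any warm one. Actg1 had a mean of 110 CPM in ET and 51.0 CPM in LT, and cofilin (Cfl1) 144 and 79.1 CPM. On both of these units LT overlapped SA. The unit with profilin, Srf and both alpha-actinins passed neither threshold in any comparison in the edgeR fit of all libraries with TMM scaling. From warm to cold, 3 of the 10 units were called higher (Actb:Fbxl18, Actg1 and Cfl1), where 18.6% of all units were, and 0 of 10 were called lower, where 17.6% were. At the second threshold 5 were called higher (Myh9 and Vcl in addition) beside 30.8% of all units, and 1, Flna, was called lower beside 33.7%. Over the 5 states together, 2 of 10 were called (Actb:Fbxl18 and Cfl1), beside 25.5% of all units. With 10 units, these counts lie within 3 of the numbers that the background shares give, and they are no result about the group. The median log2 change from warm to cold was 0.53 over the 10 units and −0.04 over all units. Scaled to each library's uniquely mapped reads in place of TMM, the median of all units was higher by 0.23, calls of all units went from 1177 higher and 1116 lower to 1685 and 774, and 4 members were called higher (Myh9 in addition) and 0 lower. The differences given here are therefore relative to the typical unit. The paper states that scaling by library size hides changes in total transcription between states. It cites an earlier run-on study of another ground squirrel, in which liver transcription was higher in IBA than in LT. A rise given here is thus no measure of absolute transcription.

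**Figure D1:**
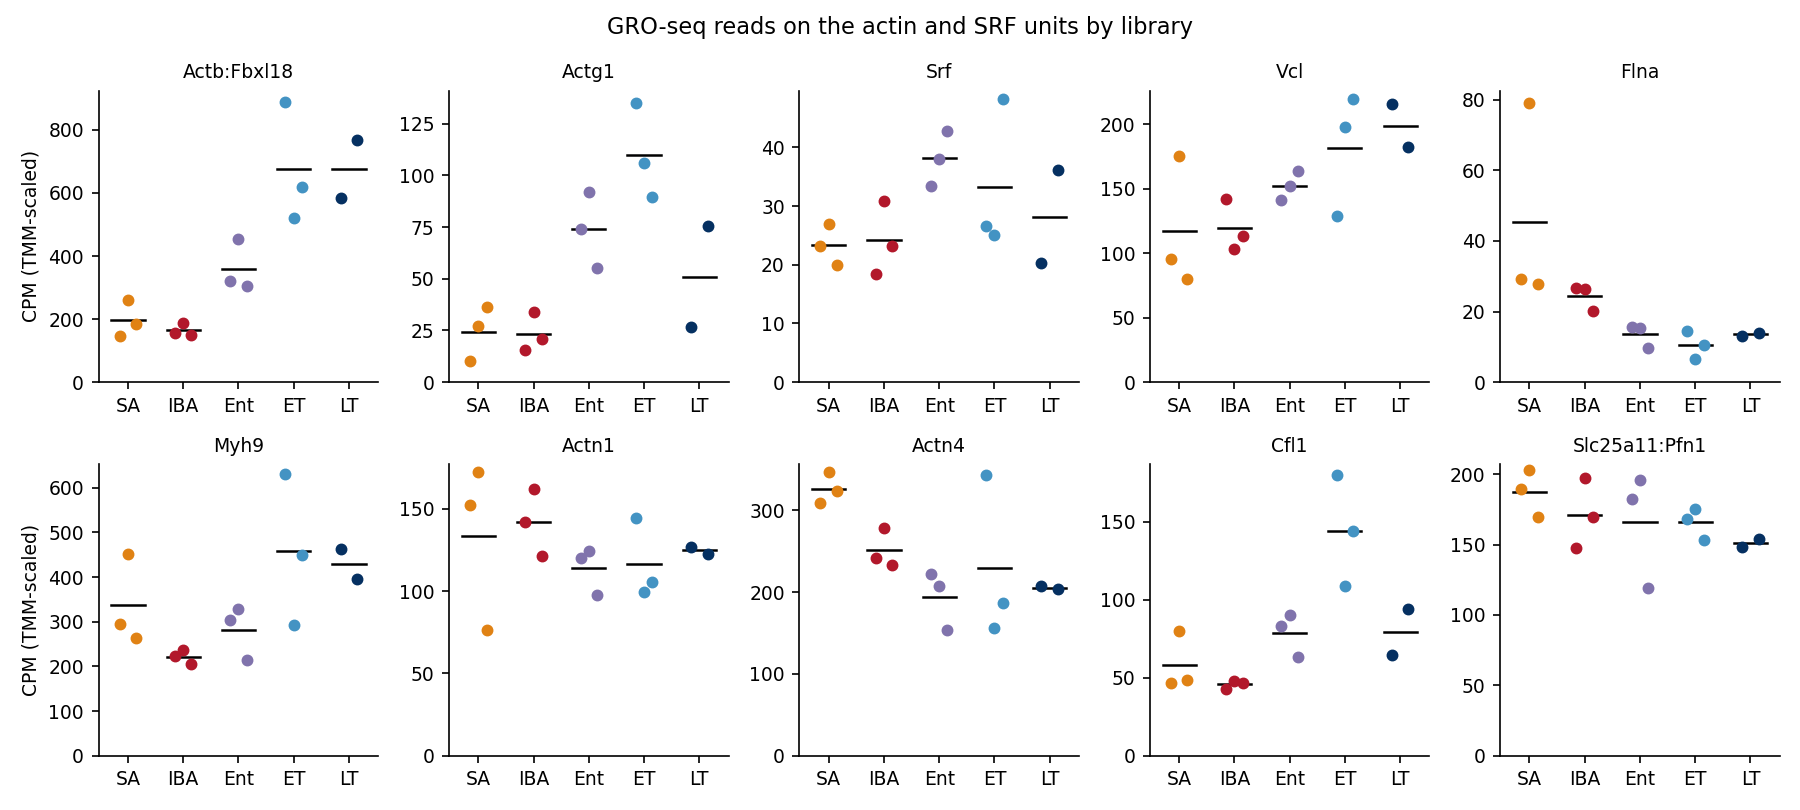
Each panel shows 1 unit, with the 5 states on the x axis and CPM (linear, from 0) on the y axis. Points are libraries and bars are state means. Actb:Fbxl18 steps up from SA and IBA (147 to 262 CPM) through Ent to ET and LT (522 to 888 CPM), Flna steps down, and Slc25a11:Pfn1 overlaps between all neighbouring states.

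Per kilobase of unit, which allows genes of different length to be set side by side, the order of the mean levels differed between warm and cold libraries. In SA and IBA together the mean level was highest on Slc25a11:Pfn1 at 8.91 CPM per kb, and it was 5.47 on Cfl1, 4.51 on Actg1, 4.17 on Actn4, 3.37 on Actb:Fbxl18 and 3.29 CPM per kb on Myh9. In ET and LT together the means were 16.3 CPM per kb on Actg1, 12.6 on Actb:Fbxl18, 12.4 on Cfl1, 7.94 on Slc25a11:Pfn1, 5.25 on Myh9, 3.45 on Srf and 3.17 CPM per kb on Actn4. Within LT alone Actb:Fbxl18 was higher than Actg1, at 12.6 against 9.61 CPM per kb. Flna had the lowest mean in the cold, 0.462 CPM per kb (1.37 in the warm libraries), and Vcl the lowest in the warm, 1.03 CPM per kb (1.65 in the cold). The unit of Actb:Fbxl18 spans much sequence outside Actb, so its level per kb is not that of Actb itself. Counts were thinnest on Flna (34 to 287 reads per library), Actg1 (42 to 916) and Srf (65 to 302), and deepest on Actb:Fbxl18 (546 to 6030).

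Actb encodes beta-actin, the main actin of non-muscle cells, and Actb:Fbxl18 was the member unit with the largest change from warm to cold. That change cannot be assigned to Actb or to Fbxl18, and reads from the sequence between the genes count in the unit and cannot be told apart from those of either gene. The paper shows this pair among examples in which a downstream gene gained reads from ET to LT. For these it proposes slow transcription past the end of the upstream gene, which was not tested here. The unit lies on Itri9 from 140676738 to 140730511 of the HiC_Itri_2 genome, plus strand, and in the RefSeq annotation 0 genes lie between Actb and Fbxl18, the gene of an F-box protein. It stood at 147, 262 and 184 CPM in SA replicates 1 to 3 and at 155, 189 and 150.2 CPM in IBA. Ent libraries gave 322, 453 and 304 CPM, those of ET 888, 522 and 618 CPM, and LT replicates 1 and 3 gave 584 and 768 CPM. Warm, entering and cold livers formed 3 groups with no overlap, in that order. Each cold library was above each warm one for 1 of 10 members, this unit, and for 21.1% of all units. Each Ent library was above each warm one for 3 of 10 members and 12.7% of all units. Each Ent library was below each cold one for 1 of 10 members, this unit, and for 18.6% of all units. The rise from warm to cold was 1.91 on the log2 scale (SE 0.19), or 3.75-fold, with an adjusted p of 3.12e-06 in edgeR, and the adjusted p over the 5 states was 6.12e-05.

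The rise began in Ent and went on into ET. From IBA to Ent the unit was higher by 1.13 log2 (SE 0.25, adjusted p = 0.0122) and from Ent to ET by a further 0.91 (SE 0.25, adjusted p = 0.0168), both past the second threshold only. ET and LT were level, at −0.00 log2 (SE 0.28). On rewarming, from LT to IBA, the unit fell by 2.04 log2 (SE 0.28), 4.10-fold, with an adjusted p of 0.000104. It was the 1 member of 10 called in that transition, in which 17.4% of all units were called. Without LT replicate 3 the difference was −1.82 log2 with an adjusted p of 0.00164. With season as a covariate, in a fit without ET, it was −2.20 log2 with an adjusted p of 0.00273 in edgeR, past the second threshold only.

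Actg1 encodes gamma-actin, the other cytoplasmic actin. Its protein is almost identical to beta-actin and reads from exons of such close relatives may not align uniquely, so its count and that of Actb are uncertain to that extent. A unit on the opposite strand lies 1614 nt upstream of Actg1, and as the strand setting of the counting is not given in the sources used here, reads of a gene and of an antisense partner cannot be told apart. The unit, on Itri7 from 1239207 to 1244513, plus strand, is the shortest of the members at 5307 nt. It gave 10.1, 27.0 and 36.4 CPM in SA, 15.3, 33.9 and 20.9 CPM in IBA, 74.3, 92.1 and 55.3 CPM in Ent, 135, 106 and 89.7 CPM in ET, and 26.5 and 75.6 CPM in LT. Every Ent and ET library lay above all 6 warm ones, and LT was split, with replicate 1 among the warm libraries and replicate 3 among those of Ent. The rise from warm to cold was 1.63 log2 (SE 0.34), 3.10-fold, with an adjusted p of 0.000997, just inside the threshold. In 11 of 14 fits that left out 1 library it no longer passed 0.001. It passed without SA replicate 3, IBA replicate 2 or LT replicate 1, and it was weakest without LT replicate 3 (1.16 log2, adjusted p = 0.0111). In the step from IBA to Ent the unit was higher by 1.65 log2 (SE 0.46, adjusted p = 0.0299), past the second threshold. All 3 ET libraries exceeded both LT libraries, as they did for 2 of 10 members and 13.1% of all units. The difference of −1.11 log2 from ET to LT (SE 0.51) had an adjusted p of 0.567.

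The other two filament-turnover genes split. Cfl1 encodes cofilin-1, which severs and takes apart old filaments, and its unit (Itri3 from 7236980 to 7246499, plus strand) was at 46.8, 79.8 and 48.6 CPM in SA and 42.9, 47.7 and 46.8 CPM in IBA. In Ent it was at 83.0, 89.9 and 63.3 CPM, in ET at 180.2, 109 and 144 CPM, and in LT at 64.4 and 93.8 CPM. SA replicate 2 stood with the Ent and LT libraries, the other 5 warm libraries stood below all others, and ET stood above all. From warm to cold Cfl1 rose by 1.05 log2 (SE 0.18), 2.07-fold, with an adjusted p of 0.000255 in edgeR, and it was called over the 5 states (adjusted p = 0.000673). That second call was made in 4 of 14 fits that left out 1 library and was not made with a replicate block. Without LT replicate 3 the rise was 0.90 and its adjusted p 0.00238. The steps from IBA to Ent (0.78 log2, SE 0.25, adjusted p = 0.0476) and from Ent to ET (0.87, SE 0.24, adjusted p = 0.0174) passed the second threshold. In LT, both libraries fell below all of ET, as for 2 of 10 members and 13.1% of all units. The difference was −0.87 log2 (SE 0.28) with an adjusted p of 0.279.

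Pfn1 encodes profilin-1, which binds actin subunits and loads them onto growing filament ends, and Slc25a11 a mitochondrial carrier. In RefSeq 1 protein-coding gene lies between them. Slc25a11:Pfn1 (Itri7 from 53118744 to 53138877, minus strand) was at 189, 203 and 169.8 CPM in SA, 147, 197 and 169 CPM in IBA, 182, 196 and 119 CPM in Ent, 168, 175 and 154 CPM in ET and 148 and 154 CPM in LT. All neighbouring states overlapped. Both LT libraries lay below all SA libraries, and the share of all units for which this holds is not given here. The unit's log2 difference from warm to cold was −0.18 (SE 0.13, adjusted p = 0.243) and its adjusted p over the 5 states 0.644, and the difference became 0.05 with scaling to uniquely mapped reads. Pfn1 shares its unit with another gene, so an unequal change of the pair would not be seen.

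Srf itself passed neither threshold in the edgeR fit with TMM scaling. On its unit (Itri8 from 47171293 to 47180352, plus strand) SA gave 23.1, 27.0 and 19.96 CPM, IBA 18.5, 30.9 and 23.1 CPM, Ent 33.4, 38.1 and 42.8 CPM, ET 26.7, 25.1 and 48.2 CPM, and LT 20.3 and 36.1 CPM. The 3 Ent libraries lay above all 6 warm ones, as they did for Actb:Fbxl18 and Actg1 (3 of 10 members, 12.7% of all units), while ET and LT each held low and high libraries. Ent had the highest mean for Srf alone among the members. The difference from IBA to Ent was 0.65 log2 (SE 0.29, adjusted p = 0.145), and that from warm to cold 0.37 (SE 0.22, adjusted p = 0.159). Scaled to uniquely mapped reads, the warm to cold difference was 0.60 log2 with an adjusted p of 0.0327 in edgeR, past the second threshold. The next unit downstream on the same strand, Cul9, starts 1146 nt after the end of Srf and was called lower in the cold, at −0.95 log2 (SE 0.15).

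Among the crosslinkers, Flna was lower in the cold at the second threshold. It encodes filamin A, which ties filaments into networks and to membrane receptors, and its unit lies on Itri10 from 119359631 to 119385050, minus strand. SA libraries gave 29.2, 78.9 and 27.9 CPM and IBA libraries 26.7, 26.3 and 20.1 CPM. Ent gave 15.7, 15.3 and 9.78 CPM, ET 14.6, 6.68 and 10.5 CPM, and LT 13.0 and 14.0 CPM. All 8 libraries of Ent, ET and LT lay below all 6 warm libraries, and SA replicate 2 stood far above the other 5. Each cold library was below each warm one for 1 of 10 members, Flna, and for 19.5% of all units. Each Ent library was below each warm one for 2 of 10 members and for 10.2% of all units. The log2 difference from warm to cold was −1.46 (SE 0.30), 2.75-fold lower in the cold, with an adjusted p of 0.00102 in edgeR, just outside 0.001 and past 0.05, while DESeq2 called it lower with an adjusted p of 6.61e-06. Without SA replicate 2 the difference was −1.13 and its adjusted p 0.000664.

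The alpha-actinins bundle filaments and anchor them at adhesions and junctions. Actn4 (Itri16 from 13168220 to 13237529, plus strand) was at 309, 347 and 324 CPM in SA, 241, 279 and 233 CPM in IBA, 222, 207 and 153 CPM in Ent, 344, 157 and 187 CPM in ET and 207 and 204 CPM in LT. SA was above IBA and IBA above Ent with no overlap. The first held for 3 of 10 members and 13.6% of all units, the second for 2 of 10 and 20.9%. ET replicate 1 alone among the cold libraries reached the SA range. Over all libraries the difference from warm to cold was −0.40 log2 (SE 0.18, adjusted p = 0.0695). Without ET replicate 1 it was −0.61 with an adjusted p of 0.000782, so this 1 library decided the call. Actn1 (Itri5 from 61975101 to 62067336, plus strand) ranged from 76.2 to 172 CPM in SA, from 121 to 162 CPM in IBA, from 97.5 to 124 CPM in Ent, from 99.2 to 144 CPM in ET and from 123 to 127 CPM in LT. It overlapped between all pairs of neighbouring states, with a warm to cold difference of −0.19 log2 (SE 0.19, adjusted p = 0.402), which became 0.04 with scaling to uniquely mapped reads.

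Vcl encodes vinculin, which couples filaments to integrins and cadherins under tension. It is the longest member unit at 114462 nt (Itri1 from 56555408 to 56669869, minus strand). It was at 95.7, 175 and 79.7 CPM in SA, 142, 103 and 113 CPM in IBA, 141, 152 and 164 CPM in Ent, 129, 198 and 219 CPM in ET, and 216 and 182 CPM in LT. State means went up in the order SA, IBA, Ent, ET, LT, each overlapping the next. Both LT libraries exceeded all warm ones, and the share of all units for which this holds is not given here. From warm to cold the difference was 0.69 log2 (SE 0.20, 1.61-fold) with an adjusted p of 0.00875, past the second threshold. Without SA replicate 2 it was 0.90 with an adjusted p of 0.000296.

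Myh9 encodes the heavy chain of non-muscle myosin IIA, the motor that pulls on actin filaments. Its unit (Itri4 from 11374300 to 11459328, plus strand) gave 296, 451 and 264 CPM in SA, 224, 237 and 204 CPM in IBA, 303, 328 and 215 CPM in Ent, 632, 292 and 449.6 CPM in ET, and 463 and 395 CPM in LT. IBA was lowest, below all SA and all LT libraries. Every IBA library also lay below every LT library on Actb:Fbxl18, Vcl and Cfl1, and the share of all units for which this holds is not given here. The ET libraries of Myh9 spanned a wide range. The log2 difference from warm to cold was 0.70 (SE 0.20, 1.62-fold, adjusted p = 0.00807) and that from LT to IBA −0.95 (SE 0.29, adjusted p = 0.0175), both past the second threshold. Myh9 shared with Flna and Actn4 that each SA library was above each IBA library (3 of 10 members, 13.6% of all units). Its difference from SA to IBA was −0.60 log2 (SE 0.27, adjusted p = 0.211) and −0.33 without SA replicate 2. On Flna the same difference was −0.89 log2 and −0.23 without SA replicate 2.

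**Figure D2:**
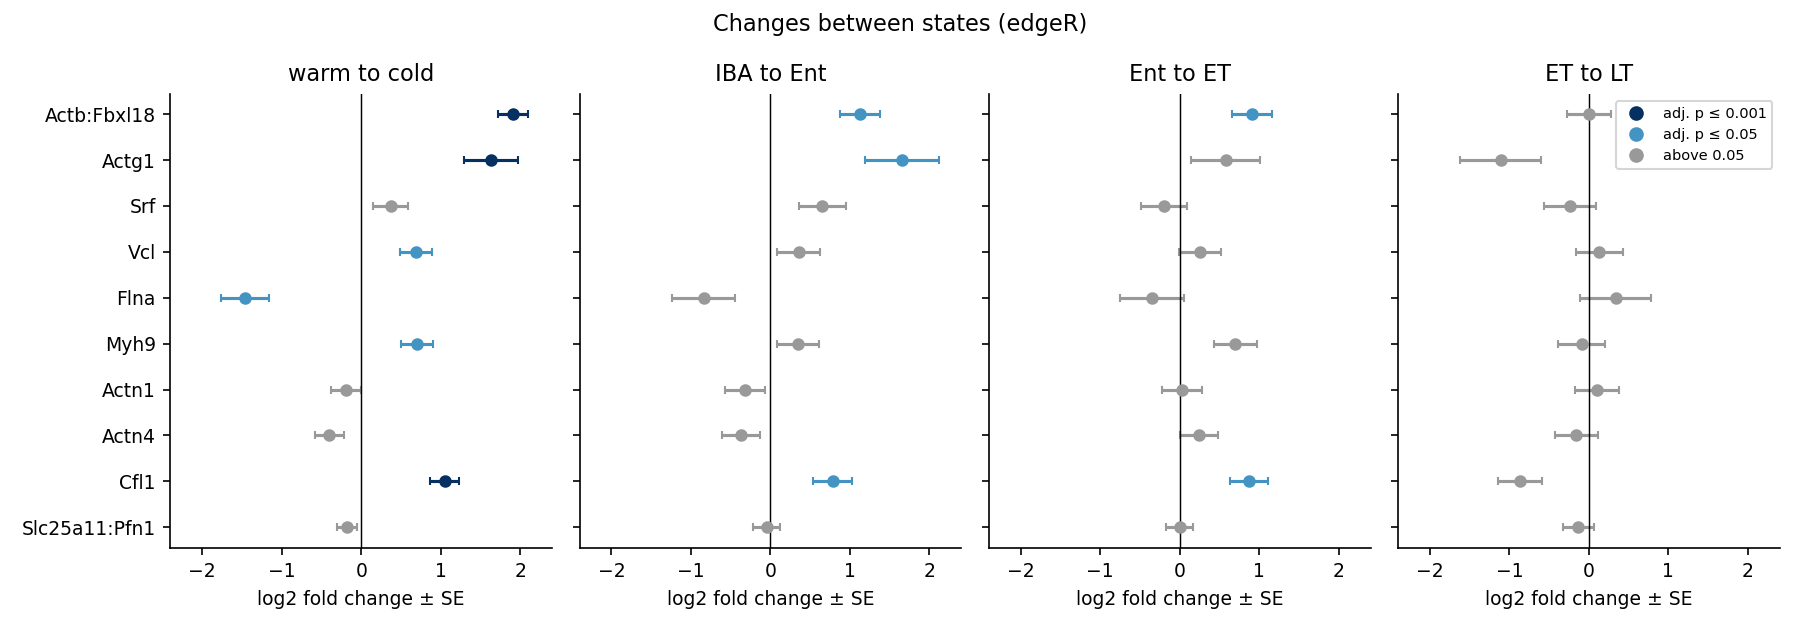
Log2 fold changes (x axis) of the 10 units (y axis) in 4 comparisons, with bars of ±1 SE from edgeR and colour for the adjusted p. Actb:Fbxl18, Actg1 and Cfl1 lie right of 0 from warm to cold, from IBA to Ent and from Ent to ET, Flna lies left of 0 in these comparisons, and no unit passes 0.05 from ET to LT.

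Taken step by step, the sequential transitions held few calls on these genes. From SA to IBA 0 of 10 were called in edgeR at either threshold, beside 0.0158% of all units at 0.001 and 5.22% at 0.05. DESeq2 also called 0, beside 3.49%, and 2 (Flna and Myh9) had an unadjusted p under 0.05 in edgeR. From IBA to Ent 0 were called at 0.001 beside 0.0316% of all units, and 4 had an unadjusted p under 0.05. DESeq2 called 1, Actb:Fbxl18, beside 7.07%. At 0.05, 3 were called higher in Ent (Actb:Fbxl18, Actg1 and Cfl1), beside 8.76% of all units. From Ent to ET 0 were called at 0.001 by edgeR or DESeq2, beside 2.21% in edgeR and 14.8% in DESeq2, with 3 at an unadjusted p under 0.05. At 0.05 edgeR called 2 higher (Actb:Fbxl18 and Cfl1) beside 15.3%. From ET to LT 0 were called by either tool at 0.001, where 0% of all units were in edgeR and 0.585% in DESeq2. In edgeR 0 were called at 0.05, where 0.269% were, with 2 (Cfl1 and Actg1) at an unadjusted p under 0.05. From LT to IBA the second threshold gave 3 lower in IBA (Actb:Fbxl18, Myh9 and Cfl1), beside 24.8%. The share of all units at an unadjusted p under 0.05 is not given here, so the counts at that p are no result about the members. The comparisons share libraries of IBA, Ent, ET and LT, so these counts are not independent.

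Some libraries stood out on many members at once. SA replicate 2 was the highest of the 6 warm libraries on 8 of 10 members, all but Actg1 and Srf, and on 25.7% of all units. This library also had the highest summed hepatocyte markers, 22572 CPM, beside 10245 to 15180 CPM in the other warm libraries, and the smallest total, 3713883 reads. Cps1, 1 of these markers, was at 7452 ± 5639 CPM (SD) in SA and weighs heavily in the sum. The share of hepatocytes in this library was not tested. ET replicate 1 was the highest cold library on Actb:Fbxl18, Actg1, Flna, Myh9, Actn1, Actn4 and Cfl1. The share of all units on which ET replicate 1 was the highest cold library is not given here, so this is no result about the members. The part of ET replicate 1 in these means was not tested beyond the fits without it. Over the 14 libraries the 45 pairs of members gave 25 positive and 20 negative Pearson correlations of log2 CPM. The closest pairs were Actb:Fbxl18 with Cfl1 (r = 0.882), Actg1 with Cfl1 (0.850), Actb:Fbxl18 with Actg1 (0.805) and Flna with Actn4 (0.804). Vcl with Actn4 (−0.632) and Actg1 with Flna (−0.623) were most opposed. These values describe 14 libraries that share states, seasons and scaling, and carry no test.

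The units that tracked the members most closely were named by a rule, as the 3 single-gene units with the highest Pearson r of log2 CPM over 14 libraries, for the 3 members with the smallest p over the states. For Actb:Fbxl18 they were Psmb1, a proteasome subunit (r = 0.982), Hcfc1, a transcriptional coregulator (0.979), and Napg, a SNARE adaptor (0.978). For Cfl1 they were Idh3g, a subunit of mitochondrial isocitrate dehydrogenase (0.948), Ptbp1, a splicing regulator (0.936), and the unit GLRX5_containing (0.932). For Flna they were CORO7, a coronin (0.960), Sult2b1, a sulfotransferase (0.959), and Abtb2 (0.945). None of these 9 belongs to the 10 members.

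Other genes of the actin system were listed by role. Over 4 lists, 45 genes had a unit of their own. From warm to cold 7 of the 45 were called higher in edgeR, beside 18.6% of all units, and 8 lower, beside 17.6%. Over the 5 states 10 (22.2%) were called, beside 25.5%. These counts, and those of each list of more than 1 gene, lie near the background and are no result about the lists. The median change over the 45 was −0.22 log2, beside −0.04 over all units. Scaled to uniquely mapped reads, 9 were called higher and 3 lower with a median of 0.01, so the balance of these counts depends on the scaling.

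Filament assembly and turnover, the list of the cofilin and actin-nucleating genes, had 3 of 16 genes called higher and 1 lower. Of all units 18.6% were called higher and 17.6% lower. The median of the list was 0.06 log2. Cfl2, the second cofilin, rose from 23.8 ± 4.67 CPM (SD, n = 6 warm libraries) to 76.7 ± 12.1 CPM (n = 5 cold), by 1.69 log2 (SE 0.15). Twf1, a twinfilin that holds actin subunits, rose from 16.1 ± 1.52 to 44.9 ± 9.58 CPM. Actr2, a core subunit of the Arp2/3 complex that starts filament branches, rose from 164 ± 21.0 to 376 ± 17.8 CPM, or 1.198 log2 (SE 0.10). Its partner subunit gene Actr3 had a difference of 0.09 log2 with an adjusted p of 0.561. The gene called lower was Abi1, a subunit of the WAVE complex that switches Arp2/3 on, at −0.77 log2.

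Crosslinkers and adhesion genes had 2 of 17 higher and 4 lower (median −0.22 log2), beside 18.6% and 17.6% of all units. With scaling to uniquely mapped reads the counts were 2 and 1. Pxn, the focal adhesion scaffold paxillin, fell from 107 ± 15.5 to 64.1 ± 6.16 CPM. Sptbn1, a spectrin of the membrane skeleton, fell from 615 ± 56.2 to 401 ± 28.4 CPM, and Itga5 and Ilk were also called lower. Ezr, the gene of ezrin, which links filaments to the membrane, rose from 55.4 ± 10.8 to 107 ± 19.8 CPM, and the integrin gene Itgb1 was the other one called higher.

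Myosins and tropomyosins had 2 of 11 higher and 2 lower (median −0.38 log2), beside 18.6% and 17.6% of all units. With scaling to uniquely mapped reads the counts were 2 and 0. MYL12B, a regulatory light chain of non-muscle myosin, rose from 27.0 ± 2.50 to 60.2 ± 7.33 CPM, and Cnn3, a calponin, from 189 ± 24.2 to 332 ± 36.0 CPM. Mylk, the kinase of the myosin light chain, fell from 259.9 ± 87.6 to 120.0 ± 37.4 CPM. Its warm states were unlike, at 183 ± 37.3 CPM in SA and 336 ± 13.4 CPM in IBA, beside 115 ± 28.3 CPM in ET and 128 ± 61.4 CPM in LT. Tpm1, a tropomyosin, fell by 0.90 log2. Of 24 other textbook SRF targets 1 had a unit of its own, Egr1, an immediate early gene. It went from 61.6 ± 32.6 to 2.88 ± 2.06 CPM and fell by 4.39 log2 (SE 0.69, adjusted p = 0.000116), but did not pass 0.001 over the 5 states (adjusted p = 0.00133). Without LT replicate 3 the difference was −3.94 log2 and Egr1 was not called, and the filter of 10 counts in every library removes it.

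**Figure D3:**
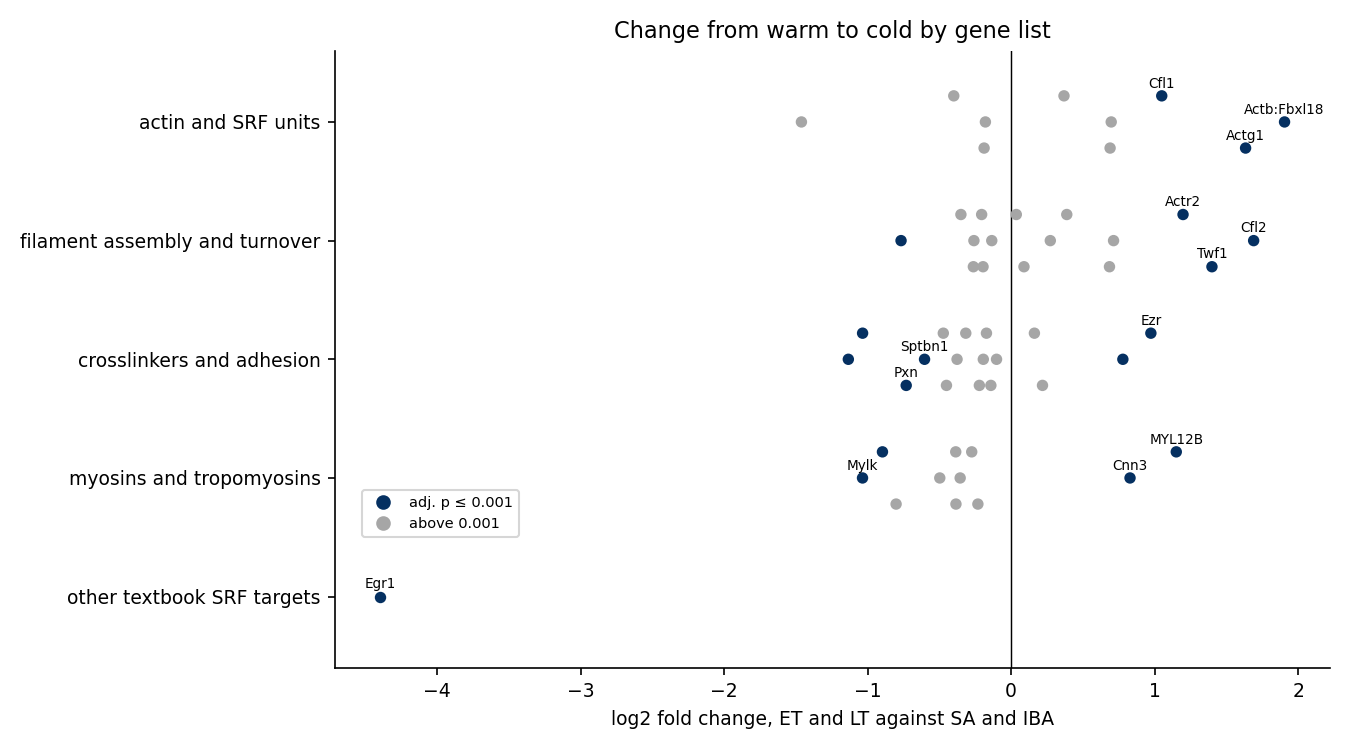
Log2 fold change from warm to cold (x axis) of the 10 units and of the 45 listed genes by list (rows); points are spread vertically to keep them apart, and dark points have an adjusted p of 0.001 or less. Called genes lie on both sides of 0 in the filament assembly, adhesion and myosin lists.

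Unit length was set beside the changes, since short and long units were not called alike. All units were put in order of length and cut into 4 sets of 1581. Of the shortest set 21.9% were called higher in the cold and of the longest 7.72%, with median changes of −0.06 and −0.17 log2. The second set had the highest share, 25.2%, with a median of 0.06 log2, so the share did not fall steadily with length. From the shortest set to the longest, 21.6, 17.1, 15.4 and 16.6% were called lower. Actg1, Srf and Cfl1 lie in the shortest set, Flna and Slc25a11:Pfn1 in the second, and Vcl, Myh9 and Actn1 in the longest. Actb:Fbxl18, called higher, and Actn4, not called, share the third set, in which 19.7% were called higher. The part of length in the members' changes was not tested.

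**Figure D4:**
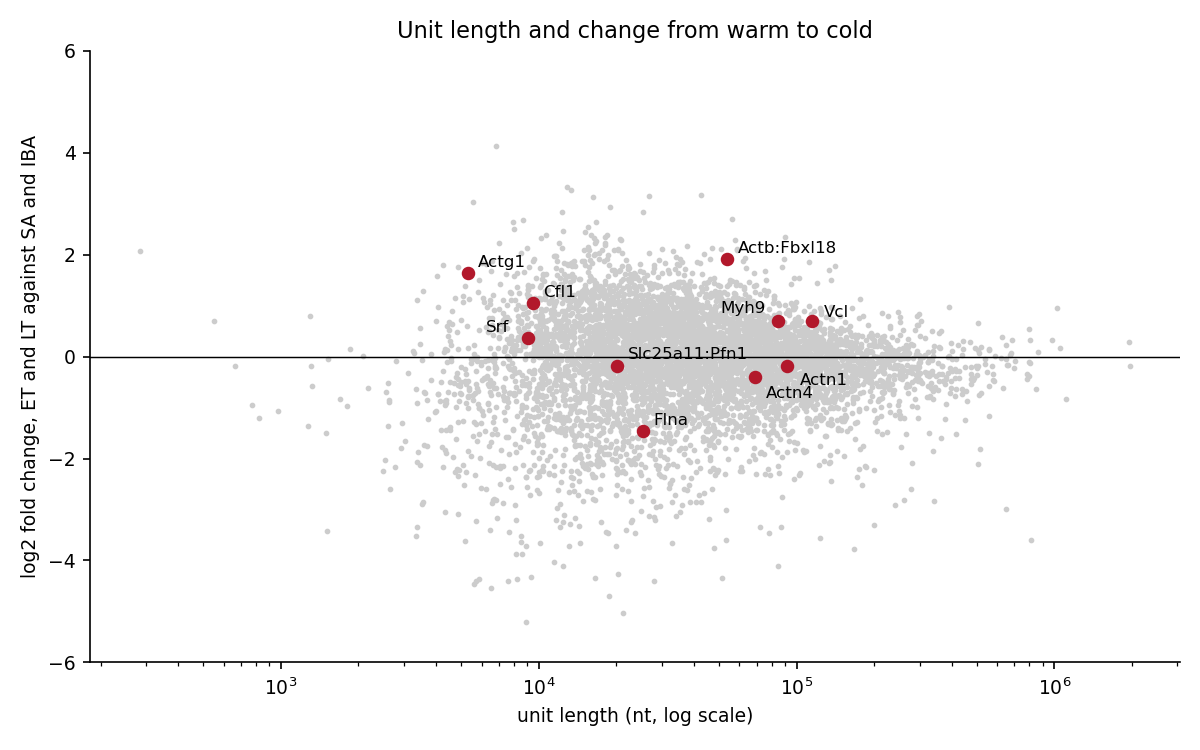
Unit length in nt (x axis, log scale) against the log2 fold change from warm to cold (y axis) for all units in grey and the 10 members in red, with 1 unit beyond the limit of 6 not drawn. Actg1, Cfl1 and Actb:Fbxl18 sit above most units of similar length, at 1.63, 1.05 and 1.91 log2, and Flna below most, at −1.46.

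Some states were sampled in the same season, meaning the same collection year from July to June. This gives differences of mean log2 CPM within a season. Between SA and LT in 1 season (1 against 2 libraries) Actb:Fbxl18 differed by 2.19, beside 1.80 over all SA and LT libraries. In the same libraries Actg1 differed by 2.11 beside 1.04, Vcl by 1.05 beside 0.84, Cfl1 by 0.73 beside 0.46, Myh9 by 0.53 beside 0.38 and Flna by −1.09 beside −1.55. Between SA and IBA in another season (2 against 3) Actg1 differed by −0.49, beside 0.04 over all libraries. From IBA to Ent (3 against 1) Myh9 differed by −0.04 within a season, beside 0.32, and from SA to Ent (1 against 2) by 0.09 beside −0.24. From Ent to LT (2 against 2) Flna differed by −0.19 beside 0.02 and Actn4 by −0.06 beside 0.10. Each pair of values shares libraries, rests on 1 to 3 libraries a side within a season, and carries no test.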

How the data were processed

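GRO-seq was performed on nuclei from the livers of 14 female 13-lined ground squirrels in 5 states. The authors trimmed reads with cutadapt, aligned them to HiC_Itri_2 with BWA and counted uniquely aligned reads with featureCounts. Counting was on gene bodies redrawn from the GRO-seq signal with fstitch. Genes whose redrawn bodies overlapped were joined, and the first 500 nt were removed. The strand setting of the counting is not given in the sources used here. The deposited table holds raw counts of reads, which the authors did not scale. Samples were grouped by the labelled hibernation state. Counts of all 6324 units were fitted in edgeR 4.0.16 (R 4.3.3) with TMM scaling, 5 state means and quasi-likelihood tests, without a filter. Warm to cold is the mean of ET and LT less that of SA and IBA. For log2 CPM, 2 was the prior count. The script was tested on simulated data. RefSeq annotation of assembly mIctTri1.hap1 served only for which genes neighbour each other.

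The 10 genes and the lists were chosen with earlier results of these data known. Every member is named, and of each list up to 3 genes with the smallest p over the states among those past 0.001, or 1 gene where none passed. Other genes called in a list are named after their values were seen, as are Actr3 and Cul9. Some listed genes are not reported here. Alternatives were DESeq2 1.42.0, other scalings, a filter of 10 counts, a replicate block, season as a covariate, each library left out, and an adjusted p of 0.05. A count of CArG boxes in promoters was planned and not made, since no promoter sequence was used here. The precision of each value is limited by 2 or 3 animals per state.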

Additional observations from a re-analysis of the deposited data

How the results depend on the processing

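Of the 10 units, 3 were called from warm to cold, 1 from LT to IBA, 2 over the 5 states and 0 in the other transitions. No called unit changed sign under any alternative run. At an adjusted p of 0.05 the counts were 6 from warm to cold, beside 64.5% of all units, and 3 from IBA to Ent, beside 16.1%. They were 2 between Ent and ET, beside 28.8%, 3 from LT to IBA, beside 49.8%, and 5 over the states, beside 62%. DESeq2 called 4 over the states (Flna and Actg1 in addition), beside 3164 of 6324 units, 1 from IBA to Ent, beside 447, and 4 from warm to cold, beside 3054, where Flna had an adjusted p of 6.61e-06. In edgeR 1612, 2 and 2293 of all units were called in these comparisons. Leaving out 1 library gave 1 to 4 units from warm to cold, 0 to 1 from LT to IBA and 1 to 2 over the states. The lowest count from warm to cold and from LT to IBA came without LT replicate 3, when Actb:Fbxl18 alone stayed called from warm to cold. Over the states, Actb:Fbxl18 was called in 14 of 14 such fits and Cfl1 in 4, those without SA replicate 2, Ent replicate 3, ET replicate 2 or LT replicate 3. Flna passed 0.001 from warm to cold without SA replicate 1, 2 or 3, without ET replicate 1, and with the filter of 10 counts. RLE size factors and the filter, which removed 32 units, left each of these counts within 1.5 times. Scaling to uniquely mapped reads moved the median of all units by 0.23 from warm to cold, −0.18 from LT to IBA, 0.12 between Ent and ET and 0.15 between IBA and Ent.

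Replicate numbers did not pair the libraries. Deviations from the state means had a median r of 0.0343 over 26 pairs of libraries with the same number and −0.0082 over 52 with different numbers, and 3 of 14 libraries matched best with their own number. With a replicate block 1 unit, Actb:Fbxl18, was called over the states, while 3 from warm to cold and 1 from LT to IBA were called as without it.

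Season as a covariate could be fitted only without ET, so it gives no value from warm to cold or for the steps into and out of ET. It left 0 of the 10 units called over the 4 other states, beside 78 of all units, and 0 from LT to IBA, beside 199, where Actb:Fbxl18 was at −2.20 log2 with an adjusted p of 0.00273. The same libraries without the covariate, a fit added after the data were seen, gave 1 and 1, beside 760 and 963 of all units. Depth limits Flna, Actg1 and Srf most, each with under 70 reads in its thinnest library.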
